A study of Mus musculus with 225 samples.

Results

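The Hoxc and Hoxb genes described here are the 10 genes Hoxc4, Hoxc5, Hoxc6, Hoxc8, Hoxc9, Hoxc10, Hoxb3, Hoxb4, Hoxb5 and Hoxb6, chosen by name among the 23165 genes of the raw count table. All 10 had a row. They were followed in single cells of the mouse forelimb at embryonic day 12.5 (E12.5), taken from the autopod, where digits form, and from the zeugopod, the future forearm. All embryos were heterozygous for Hoxd11::GFP, a tau-GFP sequence knocked in frame into Hoxd11 on a mixed C57Bl6CBAF1 background. The forelimbs of littermates were pooled and cut into the 2 tissues, and the cells with the brightest GFP (top 20%) were sorted and captured on a Fluidigm C1 chip, which lyses each cell and copies its polyadenylated RNA in a separate chamber. Of 225 captured cells, those retained by the quality filter of the authors were used, 59 autopod cells of sequencing run NXT0072 and 17 of NXT0143 (76 in all), and 58 zeugopod cells of run NXT0142 and 65 of NXT0143. Since no label ties a cell to an embryo, each tissue is 1 pooled sample, and no p-value was computed from cells. The sort selects by GFP protein, which marks cells where Hoxd11 had been transcribed, whether or not its RNA is still found. What is given here holds for that population and not for the whole limb bud.

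Between 186271 and 9437447 reads on genes were counted in a retained cell, with a median of 3003655. The labels were checked against marker genes. Tbx5, the transcription factor that marks the forelimb, had at least 5 reads in 42.1% of autopod and 84.6% of zeugopod cells, Prrx1, a marker of limb mesenchyme, in 61.8% and 69.9%, and Hoxd11, the reporter gene of the sort, in 88.2% and 79.7%. Pitx1, which marks the hindlimb, had 1 read in all, whereas Tbx4, the other hindlimb marker, had at least 5 reads in 8 autopod and 7 zeugopod cells. At least 2 markers of epithelium were found in 1 zeugopod cell and of Schwann or neural cells in 1 other, and of muscle, endothelium or macrophages in 0 cells. Single markers of these 3 types reached 5 reads in 18, 5 and 21 cells.

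Hox genes encode homeodomain transcription factors, arrayed in 4 clusters in mammals and used along the body axis in the order in which they lie in the cluster. In the limb, genes of the HoxA and HoxD clusters pattern the segments, and genes at the posterior end of those clusters act in the most distal ones. HoxB and HoxC genes act above all in the trunk, the hindbrain and spinal cord and the blood, and Hox genes of paralog groups 4 and 5 are known to take part in switching on Tbx5 when the forelimb field is set up at an earlier stage.

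Hardly any RNA of the 10 genes was found. Together they held 146 reads in all retained cells, 142 on the 6 Hoxc genes and 4 on the 4 Hoxb genes, against 303992 reads on the 11 Hoxa genes and 707107 on the 9 Hoxd genes of the same cells. At least 5 reads of a gene were taken as detection in a cell. By this criterion a Hoxc gene was detected in 4 of 76 autopod cells (5.26%, exact 95% interval 1.45 to 12.9%) and in 2 zeugopod cells (1.63%, interval 0.198 to 5.75%), and the intervals of the tissues overlap. A Hoxb gene of the list was detected in no cell. With 3 cells as the limit of a count of 0, the share was at most 3.95% of autopod and 2.44% of zeugopod cells. The exact 95% intervals reach up to 4.74% and 2.95%. Because the reads carry no molecular identifiers, these intervals and limits describe counting error alone. Over all genes of the table, 71.9% were detected in 1 or more retained cells. Of the 10 genes 2 were, Hoxc5 and Hoxc9, and of the Hoxa and Hoxd genes 10 of 11 and 8 of 9. With 1 read as the criterion, 6 of the 10 genes were found, against 86.4% of all genes. The median number of cells in which a gene was detected was 0 over the 10 genes, 17 over the Hoxa genes, 41 over the Hoxd genes and 6 over all genes.

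**Figure D1:**
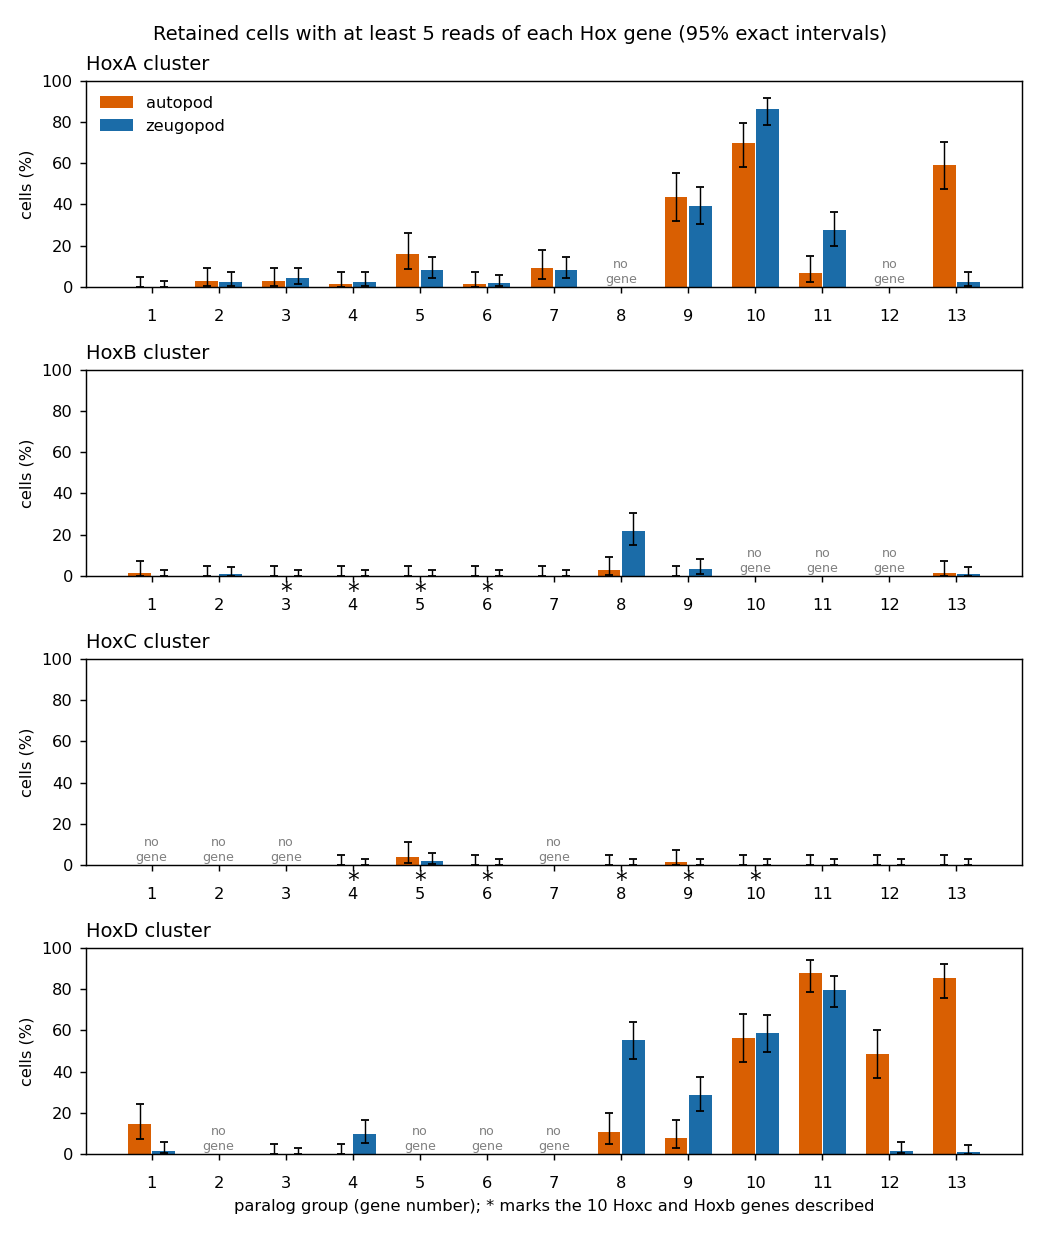
Share of retained autopod (orange) and zeugopod (blue) cells with at least 5 reads of each Hox gene (y axis, percent of cells), by cluster and paralog group (x axis). Bars give the share, lines the exact 95% interval, asterisks the 10 Hoxc and Hoxb genes, and "no gene" a paralog group that the mouse cluster lacks. The asterisked genes sit at or near 0, whereas Hoxa10 reached 69.7% and 86.2% and Hoxd13 85.5% of autopod cells.

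Among the Hoxc genes, Hoxc5 (ENSMUSG00000022485), one of the paralog group 5 genes known for their part in the early forelimb field, was the one with most reads. It held 73 reads in 7 autopod cells and 31 reads in 11 zeugopod cells. At least 5 reads were found in 5 of them, autopod cell 57 with 46 reads, autopod cells 51 and 52 with 11 reads each, zeugopod cell 9 with 7 reads and zeugopod cell 94 with 5 reads. The other 13 cells held 1 to 4 reads, so that a single cell held 46 of the 73 autopod reads. Expressed relative to the depth of the cell, 46 reads were 8.49 CPM (reads per 1000000 reads on genes) and outnumbered the reads of 51.1% of the genes detected in that cell, whereas 5 reads in zeugopod cell 94 were 1.10 CPM.

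The 3 autopod cells with at least 5 Hoxc5 reads all belonged to run NXT0072 (3 of 59, 5.08%, interval 1.06 to 14.1%). In the 17 autopod cells of NXT0143 Hoxc5 had 0 reads. The limit of 3 cells for this count is a share of 17.6%, and the exact interval reaches 19.5%. The zeugopod cells with 5 reads were 1 of 58 in NXT0142 (interval 0.0436 to 9.24%) and 1 of 65 in NXT0143 (interval 0.0389 to 8.28%). With 1 read as the criterion, Hoxc5 was in 9.21% of autopod cells and 8.94% of zeugopod cells. In these shares, no difference between the tissues or the runs was detectable at this depth. In reads, the autopod cells of NXT0072 stood apart from those of NXT0143, with 73 against 0, of which autopod cell 57 held 46.

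All other Hoxc genes were rarer still. Hoxc9 (ENSMUSG00000036139), which in the spinal cord sets the thoracic identity of motor neurons, had 27 reads, every one of them in autopod cell 4 of NXT0143, where they were 8.76 CPM and outnumbered the reads of 42.1% of the detected genes. No other cell held any. Hoxc6 (ENSMUSG00000001661), a gene of the brachial and upper thoracic body axis, had 10 reads in 7 cells, 3 autopod and 4 zeugopod, and never more than 2 in a cell. Hoxc10 (ENSMUSG00000022484), known from the lumbar spinal cord and the hindlimb, had 1 read in a zeugopod cell of NXT0142, and 1 more in a captured zeugopod cell that was not retained. Hoxc4 (ENSMUSG00000075394), a paralog group 4 gene, and Hoxc8 (ENSMUSG00000001657), which patterns the thoracic skeleton, had 0 reads in all 225 captured cells.

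The 4 Hoxb genes held 4 reads. Hoxb3 (ENSMUSG00000048763), a hindbrain gene, had 1 read in each of autopod cells 58 and 86 and zeugopod cell 88. Hoxb4 (ENSMUSG00000038692), best known from blood stem cells, had 1 read, in zeugopod cell 74. Hoxb5 (ENSMUSG00000038700), whose loss shifts the position of the forelimb along the trunk, and Hoxb6 (ENSMUSG00000000690), a gene of the lateral plate mesoderm, had 0 reads in the 225 captured cells. No cell held reads of 2 of these Hoxb genes.

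**Figure D2:**
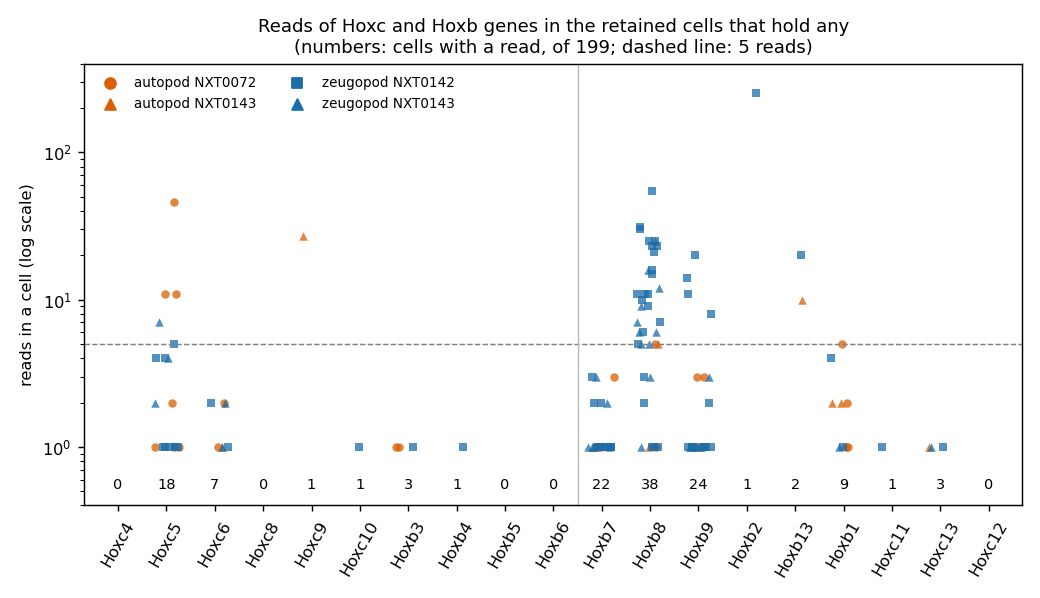
Reads per cell (y axis, log scale) for each Hoxc and Hoxb gene (x axis), 1 point for each retained cell with a read, coloured by tissue with a symbol for each run. The 10 genes stand left of the vertical line and the other Hoxb and Hoxc genes right of it, and the row of numbers gives the cells with a read, from 0 to 18 on the left and up to 38 for Hoxb8 on the right.

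The other 9 genes of the clusters were read in the same cells. Hoxb8, the neighbour of Hoxb7 toward the posterior end of HoxB and known in the limb for an early posterior domain, was the exception, with 449 reads and at least 5 reads in 2 of 76 autopod cells (2.63%, interval 0.320 to 9.18%) and in 27 zeugopod cells (interval 15.0 to 30.3%). The difference between the tissues lay in the same direction between NXT0072 (1 of 59) and NXT0142 (18 of 58) and within NXT0143, where the intervals of 1 of 17 (0.149 to 28.7%) and 9 of 65 (6.53 to 24.7%) overlap. Hoxb9 had 80 reads and at least 5 in 4 cells, all zeugopod cells of NXT0142, with 20, 14, 11 and 8 reads. Hoxb7, the direct neighbour of Hoxb6, had 31 reads spread over 22 cells, never more than 3 in a cell. Hoxb2 held 255 reads, all in zeugopod cell 74, the same cell that gave the only Hoxb4 read and 20 reads of Hoxb13. Hoxb13 had 10 reads in autopod cell 16, Hoxb1 19 reads in 9 cells, Hoxc13 3 reads, Hoxc11 1 read and Hoxc12 none. In HoxC the genes posterior to the listed ones thus had 0 to 3 reads and were detected in 0 cells, whereas in HoxB the genes from Hoxb7 to Hoxb9 had 31 to 449 reads, against 0 to 3 for Hoxb3 to Hoxb6.

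To compare genes with one another, reads were summed over the cells of a tissue, expressed as CPM and divided by the exon length of the gene, which gives RPKM, the CPM of the tissue per kb of exon. In the autopod the order was Hoxc5 at 0.0970 RPKM (Poisson 95% interval 0.0760 to 0.122), Hoxc9 at 0.0456 (interval 0.0301 to 0.0663), Hoxc6 at 0.00682 and Hoxb3 at 0.00193, and the other 6 genes had no read. The first place rests on 1 cell, since without autopod cell 57 Hoxc5 fell to 0.0367 (interval 0.0242 to 0.0534), below Hoxc9 but within its interval, and without autopod cell 4 Hoxc9 had none. In the zeugopod Hoxc5 stood at 0.0253 RPKM (interval 0.0172 to 0.0359), above Hoxc6 at 0.00628 (interval 0.00230 to 0.0137), and Hoxc10, Hoxb4 and Hoxb3 had 1 read each, at 0.00132, 0.000982 and 0.000593, which do not differ beyond counting error. For Hoxc4, 3 reads would have stood at 0.00479 in the autopod and 0.00294 in the zeugopod, for Hoxc8 at 0.00435 and 0.00267, for Hoxb5 at 0.00442 and 0.00271, and for Hoxb6 at 0.00627 and 0.00385, which are the limits that 0 reads allow.

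The Hoxa and Hoxd paralogs of the same groups gave the scale on which to read these levels. Hoxa5 stood at 4.73 RPKM in the autopod and 4.70 in the zeugopod, 48.7 times the level of Hoxc5 in the autopod (interval 38.6 to 62.4) and 186 times in the zeugopod (interval 131 to 274). Without autopod cell 57 the autopod ratio was 132 (interval 90.3 to 200.3). It was detected in 12 autopod and 10 zeugopod cells. Against Hoxb5, with 0 reads, Hoxa5 was at least 1069-fold higher in the autopod and at least 1732-fold higher in the zeugopod, taking 3 reads over the tissue as the bound for Hoxb5. In group 8, Hoxd8 was at least 1752-fold higher than Hoxc8 in the autopod and at least 38138-fold higher in the zeugopod, where it was detected in 55.3% of cells. In group 9, Hoxa9 exceeded Hoxc9 by 574 times in the autopod (interval 395 to 871), where all Hoxc9 reads lay in 1 cell. Hoxd9 exceeded Hoxc9 there by 88.4 times (interval 60.6 to 134.5). In the zeugopod Hoxa9 was at least 4936-fold and Hoxd9 at least 4640-fold higher than Hoxc9. The intervals of all ratios here describe counting error alone. In group 6, Hoxa6 exceeded Hoxc6 by 34.4 times in the autopod (interval 12.6 to 131) and 1122 times in the zeugopod (interval 515 to 3060). In group 10, Hoxa10 was at least 7418-fold and Hoxd10 at least 18207-fold higher than Hoxc10 in the autopod.

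The anterior groups differed from this, because their Hoxa and Hoxd genes were themselves found in few cells. Hoxa4 was detected in 1 autopod and 3 zeugopod cells, Hoxa6 in 1 and 2, and Hoxa3 in 2 and 5, and a single cell held 80.1% of the zeugopod Hoxa6 reads and 85.2% of the zeugopod Hoxa4 reads. Their pooled levels of 2.97 for Hoxa4 in the autopod and 7.04 for Hoxa6 in the zeugopod were hence those of a few cells with many reads. None of the reads of Hoxc4, Hoxb4 and Hoxb6 reached that pattern, since no cell had more than 1 read of any of these 3 genes. Hoxd3 had 1 read in all, and Hoxd4 was detected in 12 zeugopod cells. Both counts are uncertain, since the 2 genes overlap each other and other models in the annotation. Of the exon bases, 37.2% for Hoxd3 and 47.7% for Hoxd4 belonged to that gene alone.

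**Figure D3:**
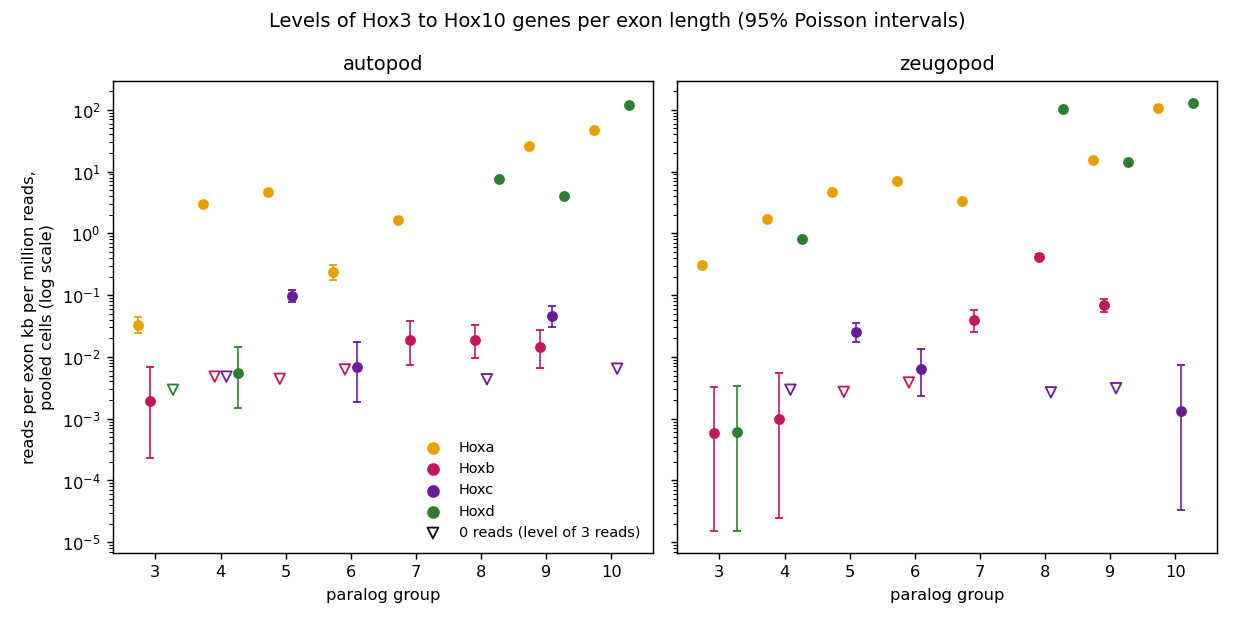
Pooled levels of the Hox genes of paralog groups 3 to 10 (x axis) in autopod and zeugopod cells, in RPKM on a log axis (y axis). Points give the level with its Poisson 95% interval and open triangles the level that 3 reads would have for a gene with 0 reads. The Hoxc and Hoxb genes of groups 3 to 6 lie below 0.1. Of the Hoxa and Hoxd genes of these groups, autopod Hoxa3 (0.0334), autopod Hoxd4 (0.00557) and Hoxd3 in both tissues lie below 0.1 too. The others of these groups lie between 0.235 and 7.04. In groups 8 to 10, Hoxa9, Hoxa10, Hoxd8, Hoxd9 and Hoxd10 lie between 4.03 and 131, and zeugopod Hoxb8 lies at 0.418.

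The cells with Hoxc5 reads had one more feature in common, which was noticed when the reads of all 20 Hoxa and Hoxd genes were set beside those of Hoxc5. All 18 cells with a Hoxc5 read had at least 5 reads of Hoxa9, a gene expressed through much of the developing limb, against 63 of the 181 cells without Hoxc5. The median number of Hoxa9 reads was 1163.5 in the former and 0 in the latter. For Hoxa10 this held for 16 of 18 and 143 of 181 cells, for Hoxd10 for 72.2% and 56.4%, and for Hoxd11 for 66.7% and 84.5%. The rank correlation of Hoxc5 with Hoxa9 was 0.481 over all retained cells, given as a description since the cells share 2 pooled samples and their libraries differ in depth, and those with the other Hoxa and Hoxd genes that have reads lay between -0.0603 and 0.193. Among the 8986 genes detected in 10% or more of autopod or of zeugopod cells, the coefficient in CPM was highest for Hoxa9, at 0.471, and next highest for Abracl, at 0.331.

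The reads of Hoxc5 followed those of Hoxa9 in amount. In the cells with 0 Hoxa9 reads Hoxc5 had none, in the 45 cells with 1 to 99 Hoxa9 reads it had 2 reads, in the 30 cells with at least 100 but under 1000 it had 9, and in the 17 cells with 1000 or more it had 93 and at least 1 read in 9 cells. Within the 18 cells the Hoxc5 reads were 0.0635 to 1.67% of the Hoxa9 reads, with a median of 0.262%. The autopod cells 57, 52 and 51 had 9665, 5090 and 7684 Hoxa9 reads, and zeugopod cells 9 and 94 had 2354 and 3357. In the 17 autopod cells of NXT0143, where Hoxc5 was not read, Hoxa9 had 132 reads in all.

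The transcripts of the 2 genes were therefore compared, since both encode a homeodomain. The longest stretch that the annotated transcripts of Hoxc5 and Hoxa9 have in common was 31 bases, the longest that Hoxc5 shared with any of the 20 Hoxa and Hoxd genes. No 75-base window, the length of a read, of the Hoxc5 transcript examined occurred in full in a transcript of another gene.

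Hoxc9 also shared 31 bases with Hoxa9, in coding sequence, within the 75-base windows chr15:102983939-102984013 on the plus strand and chr6:52224364-52224438 on the minus strand (GRCm38), of which 63 bases were equal. They are shown to set the Hoxc9 reads beside those of Hoxc5, with the shared stretch in capitals.
Hoxc9: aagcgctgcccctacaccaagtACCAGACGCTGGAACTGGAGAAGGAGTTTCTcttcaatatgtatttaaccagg
Hoxa9: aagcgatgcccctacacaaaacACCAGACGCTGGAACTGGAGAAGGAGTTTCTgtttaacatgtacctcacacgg
Hoxc9 had 0 reads in the 92 cells with Hoxa9 reads, and its 27 reads lay in a cell with 0 reads of Hoxa9. Longer stretches were shared, among others, by Hoxb4 with Hoxa6 (52 bases) and with Hoxa7 (47 bases). Hoxb3 shared 47 bases with Hoxd3, and Hoxb9 shared 40 with Hoxd9. Hoxa6 was detected in 3 cells and Hoxd3, a gene of uncertain count, in 0, which left little to compare. Hoxa7 was detected in 7 autopod and 10 zeugopod cells, and Hoxb4 had 1 read in all. Of the 24 cells with a Hoxb9 read, 10 had at least 5 reads of Hoxd9, against 31 of the other 175. The rank correlation of Hoxb9 was 0.246 with Hoxd9, and 0.367 with Hoxa11, which shares 24 bases. Hoxb7 and Hoxa5 shared 32 bases. Of 22 cells with a Hoxb7 read, 1 had at least 5 reads of Hoxa5, against 21 of the other 177. The files give no positions of reads within genes, and the part of shared sequence in the Hoxc5 reads was not tested.

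Reads of Hoxb8 were compared with those of Hoxd8 in the same way. Of 38 cells with a Hoxb8 read, 34 had at least 5 reads of Hoxd8, a gene of the proximal limb, against 42 of the other 161 cells, and 27 of the 29 cells with 1000 or more Hoxd8 reads had a Hoxb8 read. In the 34 cells with reads of both genes, the Hoxb8 reads were 0.134 to 14.3% of the Hoxd8 reads, with a median of 0.382%. In the zeugopod 33 of 34 cells with a Hoxb8 read had Hoxd8 reads and the rank correlation was 0.756, whereas in the autopod 1 of 4 did and it was 0.0830. For Hoxc5 and Hoxa9 the coefficients were 0.471 and 0.494. The other 4 cells held Hoxb8 reads with 0 reads of Hoxd8, among them autopod cell 29 with 5. The longest stretch in common was 32 bases, in coding sequence at chr11:96284318-96284391 for Hoxb8 and chr2:74706669-74706742 for Hoxd8, both on the plus strand, shown as windows of 74 bases with the stretch in capitals.
Hoxb8: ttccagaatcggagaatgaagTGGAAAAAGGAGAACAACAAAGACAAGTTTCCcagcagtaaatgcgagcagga
Hoxd8: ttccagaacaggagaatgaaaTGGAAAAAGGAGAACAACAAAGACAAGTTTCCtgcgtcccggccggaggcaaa
Of the 74 bases, 54 were equal. The comparison of Hoxb8 between the tissues moved together with Hoxd8, which was detected in 10.5% of autopod and 55.3% of zeugopod cells, and its part in the Hoxb8 values was not tested.

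**Figure D4:**
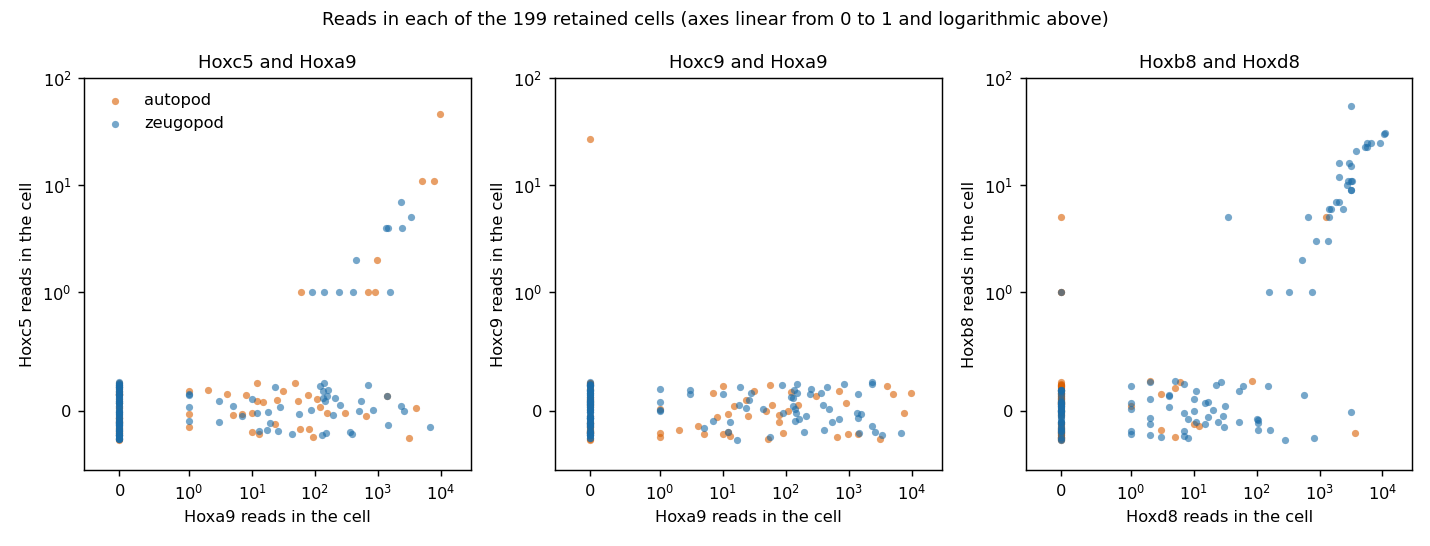
Reads of Hoxc5 against Hoxa9, of Hoxc9 against Hoxa9 and of Hoxb8 against Hoxd8 in each retained cell (both axes in reads, linear from 0 to 1 and logarithmic above, with points at 0 on the y axis spread for visibility). Orange points are autopod cells and blue points zeugopod cells. Hoxc5 and Hoxb8 reads lie mostly where the Hoxa9 or Hoxd8 reads are many, and the 1 cell with Hoxc9 reads lies at 0 Hoxa9 reads.

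Autopod and zeugopod cells were compared as the difference of mean log2(CPM + 1), a scale that understates changes of low genes. None of the 10 genes was detected in 10% of autopod or zeugopod cells, the minimum applied to the background, which 38.8% of all genes passed. The differences, autopod minus zeugopod, were 0.03 for Hoxc5 (means of 0.12 and 0.08), 0.04 for Hoxc9 (0.04 and 0.00) and between -0.0069 and 0.0082 for Hoxc6, Hoxc10, Hoxb3 and Hoxb4, and Hoxc4, Hoxc8, Hoxb5 and Hoxb6 had none to compare. Within NXT0143 the difference of Hoxc5 was -0.06 and that of Hoxc9 was 0.19, the latter from 1 cell, and between NXT0072 and NXT0142 that of Hoxc5 was 0.04. With means this close to 0, a difference of 1 in either direction could not arise, so the 0 of 10 genes past it are no result. For orientation, over the 8986 genes past the minimum 11.6% were lower by at least 1 and 3.09% higher, within NXT0143 10.1% were lower and 11.8% higher, and between NXT0072 and NXT0142 18.1% were lower and 4.41% higher. In the pooled levels given above, Hoxc5 and Hoxc9 were higher in the autopod with intervals that do not overlap those of the zeugopod, and both differences lean on 1 cell, since without it the interval of Hoxc5 (0.0242 to 0.0534) overlaps that of the zeugopod and Hoxc9 has no reads. Hoxb8 differed by -0.46 on the same scale (means of 0.08 and 0.54), and by -0.06 within NXT0143.

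Co-expression of the 10 genes could hardly be measured. At 5 reads, 193 cells had none of the genes, 6 had 1 and none had 2, a mean of 0.0526 genes per autopod cell and 0.0163 per zeugopod cell. At 1 read, 169 cells had none, 29 had 1 and 1 cell had 2. The latter was zeugopod cell 9, with 7 reads of Hoxc5 and 1 of Hoxc6. Of the 15 pairs of Hoxc genes 1 pair thus shared a cell, and of the 6 pairs of Hoxb genes and the 24 mixed pairs none did. Rank correlations within the 4 sets of cells from 1 tissue and run could be computed for 4, 1 and 6 of these pairs, with medians of -0.04, -0.02 and -0.03, and in counts this sparse they show no relation.

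The 6 cells with at least 5 reads of a Hoxc gene were otherwise limb cells by their markers. Their depth lay between 2383934 and 6084707 reads and their number of detected genes between 2931 and 5102. All 6 had at least 5 reads of 2 or more of the 5 markers of limb mesenchyme, as had 134 of the 199 retained cells. Among these markers was Prrx1, with 819 to 14526 reads. Tbx5 was detected in 2 of the 6 cells, with 91 and 4675 reads, against 136 of all 199. Tbx4 was detected in 1 of the 6, autopod cell 51, with 35 reads. No marker of muscle, epithelium, endothelium, or Schwann and neural cells reached 5 reads in any of the 6. The macrophage marker Csf1r had 6 reads in autopod cell 4, the Hoxc9 cell, and 10 in zeugopod cell 94. Autopod cells 51, 52 and 57 had Hoxd13, the most posterior Hoxd gene, at 9329, 4673 and 3797 reads and Sox9, the regulator of cartilage formation, at 96, 12742 and 20845 reads. Zeugopod cell 94 had 0 Hoxd genes with at least 5 reads, and its only detected Hoxa gene was Hoxa9.

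HoxC lies at chr15:102921103-103036852 and HoxB at chr11:96194316-96368256 (GRCm38). Genes next to the clusters were read in the same cells, which does not show how reads within the clusters were mapped or counted. Within 200 kb of HoxC, Cbx5, a heterochromatin protein, was detected in 181 of the 199 retained cells, Calcoco1 in 21.1% and Smug1 in 6.03%. Within 200 kb of HoxB, Igf2bp1, an RNA-binding protein, was detected in 60.8%, and 5 of 7 protein-coding genes were detected in at least 1 cell, the exceptions being Ttll6 with 2 reads and Skap1 with 8. Of the noncoding genes of the clusters that were looked at, Hoxb3os had 4 reads, the microRNA gene Mir10a 1, and Hoxb5os and Hotair 0.

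In the GENCODE annotation, 6 of the 10 genes (Hoxc4, Hoxc6, Hoxc8, Hoxc9, Hoxb4 and Hoxb6) share no exon base with another gene. Hoxc5 and Hoxc10 have 166 exon bases in common on the same strand, 100 bases of Hoxb5 lie opposite Hoxb5os and 2250 of the 4251 exon bases of Hoxb3 lie opposite Hoxb3os, so that 47.1% of Hoxb3 belongs to that gene alone and 67.6% of its 75-base windows lie in Hoxb3os too. The strand setting of the counting is not given in the sources used here, and reads of Hoxb3 and its antisense partner might not be told apart. Of the 75-base windows of the 10 genes' transcripts, 7 of the 2300 of Hoxc9 occurred elsewhere in the annotated transcripts, and 0 of the windows of the other 9 genes did, genes that overlap them in place left out.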

How the data were processed

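Per the labels and the study's methods, 75-base reads were mapped uniquely to mm10 (GRCm38) and the ERCC spike-ins with Bowtie2 in local mode, and the authors deposited raw counts of reads on Ensembl genes in 225 cells. The Bowtie2 version, the Ensembl release and the strand setting are not given in the sources used here. The 92 spike-in rows (3.05% of all counts) were left out of library sizes. The authors also deposited a normalized signal for 10948 genes in 199 cells, made from spike-in size factors and gene length. It holds all 10940 genes with a read in at least 10% of the retained cells of either tissue and none of the 10 genes described, so the planned differences of log2(normalized value + 1) were replaced by log2(CPM + 1), with CPM computed from the counts.

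Local alignment can place a read whose ends differ from the reference, and unique mapping drops reads that fit 2 places equally. Cells have no replicate, so shares carry exact (Clopper-Pearson) 95% intervals, sums of reads exact Poisson intervals, and 0 the limit of 3 reads or cells. Ratios of 2 sums have conditional binomial intervals. Gene positions, exon lengths and transcript sequences are those of GENCODE M21 for GRCm38, in which 23052 of 23165 gene IDs were found. Beside 71.9% of all genes, 79.0% of the 18255 protein-coding genes had 5 reads in a cell. Alternatives were 1 and 10 reads, thinning to 500000 reads (seed 42), single runs, all captured cells, pseudocounts and marker filters. Members, lists and comparisons were chosen with earlier results of these data known. Text names all 10 genes, the other Hoxb and Hoxc genes, and Hoxa and Hoxd genes, and by rule genes most like a member with 5 reads in 20 cells, which 0 members reached. The pairs with Hoxa9 and Hoxd8, Abracl, Hoxb2's cell and the neighbouring genes were chosen after their values were seen. So were the pairs of Hoxb4, Hoxb7 and Hoxb9 with genes that share stretches with them. Python 3.11.15, scipy 1.17.1 and pandas 2.3.3 were used, and calculations were tested on simulated data. Some items, among them the sequence of 1 shared stretch, are not reported here.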

Additional observations from a re-analysis of the deposited data

How the results depend on the processing

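Of the planned settings, the criterion of detection and the depth moved the results most. With 1 read in place of 5, a Hoxc gene was found in 14.5% of autopod and 12.2% of zeugopod cells, with 0.171 genes per autopod and 0.146 per zeugopod cell. With 10 reads the autopod values stayed at 5.26% and 0.0526, and the zeugopod share and mean were 0. After thinning to 500000 reads, which left out 8 cells, the autopod share was 1.39% with a mean of 0.0139 genes per cell, and both zeugopod values were 0. Leaving out Hoxc5, a setting added after seeing the data, gave 1.32% and 0, and leaving out cells with at least 5 reads of Hoxa9, likewise added, gave 2.33% and 0, which the choice of cells fixes for Hoxc5. Single runs, all captured cells and the removal of 2 cells with markers of other types kept the share of cells with a Hoxc gene within the interval given for it. The shares of cells with a listed Hoxb gene were 0 in all settings except 1 read, which gave 2.63% and 1.63%. Tissue differences of at least 1 were out of reach under every setting and are no measure of stability. For single genes, 7 shares of Hoxc5, Hoxc6 or Hoxc9 moved outside the interval of the share given, and the difference of Hoxc5 between the tissues changed from 0.03 to -0.06 within NXT0143. Without the cell with most reads, the autopod level of Hoxc5 fell from 0.0970 to 0.0367 RPKM and that of Hoxc9 to 0. The median rank correlation of Hoxc pairs lay at -0.04 and reached 0.39 in zeugopod cells of NXT0143, where it rests on the 1 cell with both Hoxc5 and Hoxc6. Normalized values of at least 5 could not be used, since no member has a normalized value, and without reads in enough cells some sets gave no coefficient. For all genes of the normalized table, 6.26% were lower and 2.83% higher in the autopod by at least 1, and 13.4% and 6.06% with 5 reads in 25% of cells. No paired analysis was possible because the replicate numbers of the 2 tissues only name cells and no test was made.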

Other observations

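Meis1 and Meis2, cofactors that bind DNA together with Hox proteins and mark the most proximal segment of the limb, were read in the same cells. They were detected in 0 autopod cells and in 3 and 6 zeugopod cells.

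Zeugopod cell 74, with 255 reads of Hoxb2 (60.8 CPM), 20 of Hoxb13 and the only read of Hoxb4, came from NXT0142 and had 4192062 reads and 5917 detected genes. It had 1423 reads of Hoxa9, 4367 of Hoxa10, 2278 of Hoxd10 and 355 of Tbx5, and 23 reads of the macrophage marker Csf1r. No other retained cell had a read of Hoxb2.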
